A study of Mus musculus with 24 samples.

Results

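Early transcript changes common to both edited genotypes were sought by setting late 2-cell (L2C) embryos edited at Ttf1 or at Zfp622, each genotype given equal weight, against wild-type embryos of the same stage. The members were the 12 libraries whose titles name that stage, of 24 in the study: 4 Ttf1 KO, 4 Zfp622 KO and 4 wild type (WT, titled NC). All came from zygotes of superovulated B6D2F1 females aged 3 to 4 weeks, mated within the same hybrid strain, and each library was made from a pool of 10 embryos. Knockout zygotes had received Cas9 protein at 100 ng/µL with 3 guide RNAs at 50 ng/µL each into the cytoplasm, followed by culture in KSOM medium. The sources do not say whether WT zygotes were injected, so that injection and editing cannot be told apart from loss of a gene in any change common to both knockouts. The embryos are injected founders, so a pool can mix edited and unedited alleles. The other 12 libraries hold the same 3 genotypes at the morula stage and were used as a separate set of embryos.

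The Ttf1 protein binds terminator sites beside the ribosomal RNA genes and ends transcription by RNA polymerase I there. Zfp622 encodes a zinc finger protein whose yeast relative acts late in the assembly of the large ribosomal subunit, so both genes belong to the making of ribosomes. The late 2-cell stage of the mouse is the time of the main wave of embryonic genome activation: transcripts inherited from the oocyte are being cleared while genes of the 2-cell stage are switched on and off again.

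Total counts per library ran from 10632541 to 11893566 in Ttf1 KO, from 12135924 to 13528954 in Zfp622 KO and from 10538723 to 12686381 in WT. Levels are given as CPM, counts scaled to a common library size after TMM normalization, and a gene is called where edgeR's quasi-likelihood test gave an adjusted p (Benjamini-Hochberg, over all 16770 genes tested) no higher than 0.05. Alignment names in the file headers place every Ttf1 KO library on lane 1 and every Zfp622 KO and WT library on lane 2. Lane therefore cannot be told apart from genotype for Ttf1 KO, and the Zfp622 KO values beside each pooled value are the ones within a lane. WT library 4 was the only late 2-cell library whose alignment name held a second index number, 93 after 80. Its part in the results was not tested. Zfp622 KO libraries 2 and 3 stood apart from each other: their counts had a chi-square per gene of 40.9, where the other 17 pairs within groups ran from 11.4 to 23.9. On the first principal component (19% of the variance) library 2 lay at -36.1, next to WT library 4 at -36.3, and library 3 at the opposite end, at 30.4, with the other Zfp622 KO libraries at 13.7 and -2.32. Counts of all calls were also taken without each library in turn, and are given as a range with single counts for some of the libraries. Those of the main gene lists are also given without library 2, a choice made after its place beside WT was seen.

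Each targeted transcript was low in its own knockout. Ttf1 was at 32.8, 27.4, 38.9 and 33.5 CPM in Ttf1 KO libraries 1 to 4, against 94.7, 90.4, 83.3 and 94.2 CPM in WT, and between 84.1 and 94.5 CPM in Zfp622 KO. Zfp622 was at 63.8, 105.5, 52.5 and 73.95 CPM in Zfp622 KO libraries 1 to 4, against 184, 198, 203 and 205 CPM in WT, and between 162 and 209 CPM in Ttf1 KO. Neither range of a knockout overlapped WT for its own gene, and the highest remaining Zfp622 level was that of library 2. Both genes were called in the pooled comparison (log2 fold changes of -0.73 for Ttf1 and -0.76 for Zfp622), but each value averages a fall in one genotype with little difference in the other, and neither counts as a common change.

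**Figure D1:**
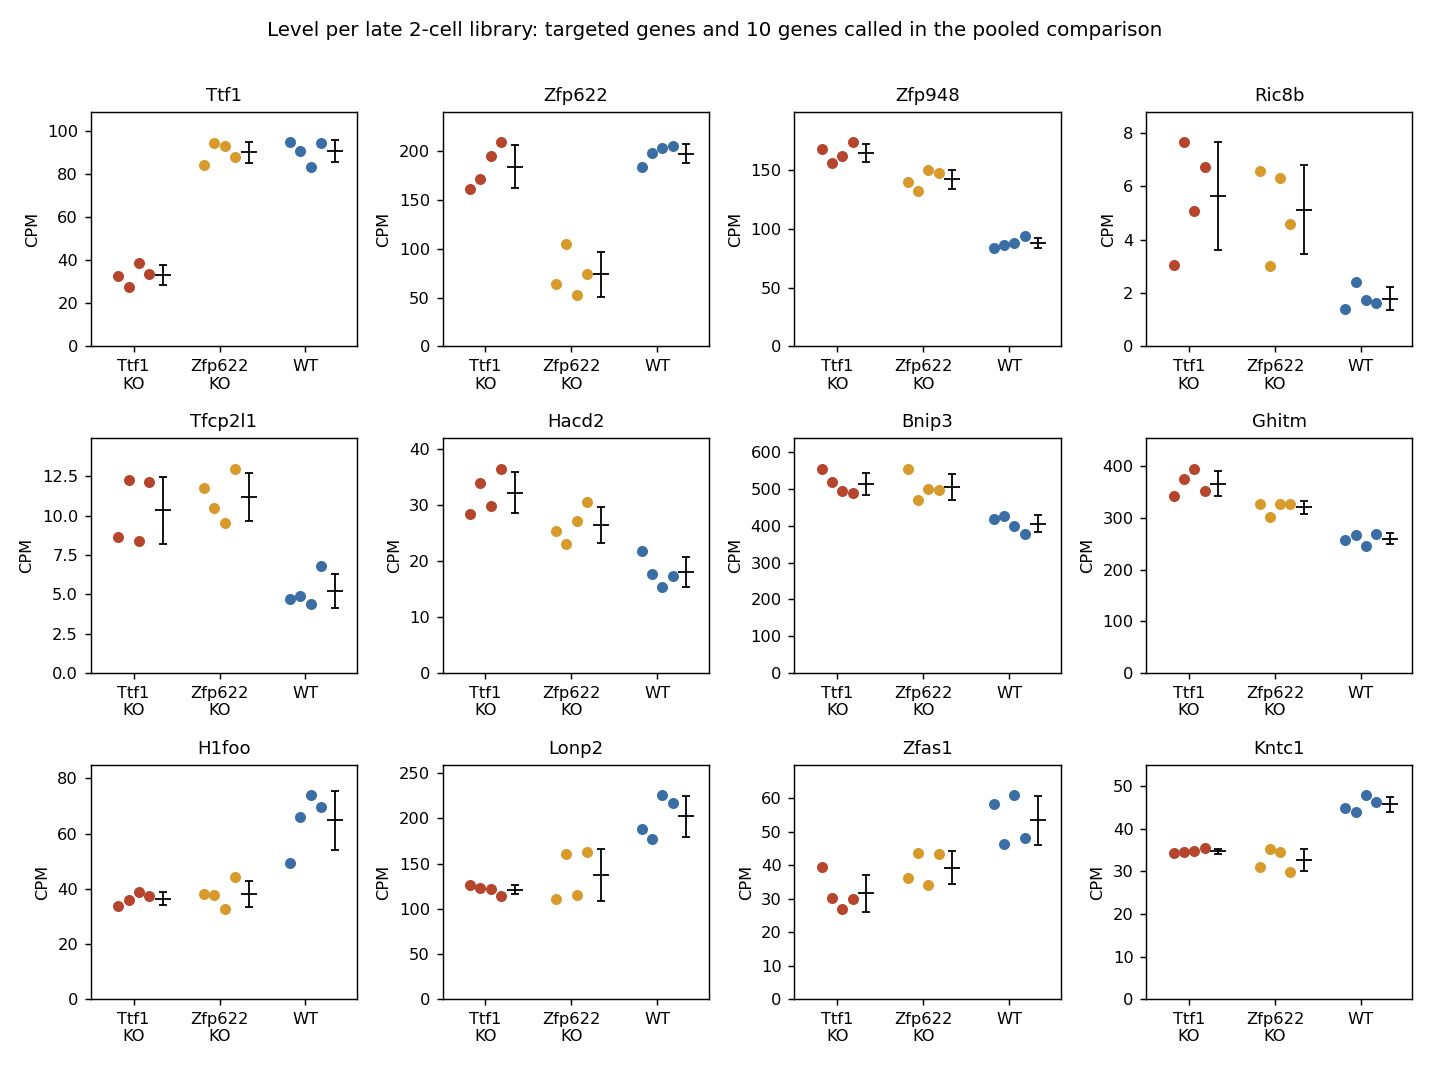
Level in CPM (vertical axes, each from 0) of both targeted genes and 10 called genes in the 4 Ttf1 KO, 4 Zfp622 KO and 4 WT libraries of the late 2-cell stage. Points are libraries in order of replicate number, and the bar beside them is the mean with its SD. Ttf1 and Zfp622 are low in 1 knockout each, whereas the 8 knockout libraries lie on one side of the 4 WT libraries for the other 10 genes. These 10 were picked from genes with that separation.

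Few transcripts were called as different between knockout and wild-type embryos at this stage. A low count of calls does not show that few differed. In simulated counts with known changes, the pooled test recovered 14.3% of 1.3-fold, 39.1% of 1.5-fold and 74.5% of 2-fold changes. Of 16770 genes tested, 33 were called (0.197%), with 18 higher (0.107%) and 15 lower (0.0894%) in the knockouts, and 31 of them are not targeted genes. The strongest by adjusted p were Zfp948, a zinc finger gene of the KRAB family, which was higher, and H1foo, the linker histone of the oocyte, which was lower. In 23 of the 33 (14 higher, 9 lower) all 8 knockout libraries lay on one side of all 4 WT libraries, which held for 189 of all genes tested (1.13%), called or not. The largest rises and falls named below were taken from these 23 calls, so their lack of overlap was a condition of the choice. Differences were mostly small. Over the 31 genes besides the targets, the absolute log2 fold change had a median of 0.59 and a range of 0.33 to 2.16. It reached 1 in 3 genes and was under 0.5 in 11.

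The pooled calls leaned on the Ttf1 knockout. Against the same 4 WT libraries, 258 genes were called in Ttf1 KO (1.54%) and 3 in Zfp622 KO (0.0179%). Among the 31 pooled calls besides the targets, the median absolute log2 fold change was 0.74 in Ttf1 KO and 0.40 in Zfp622 KO. Of all 33 pooled calls, 31 were also called in Ttf1 KO alone but 3 in Zfp622 KO alone. The direct test of Ttf1 KO against Zfp622 KO called 6 genes (0.0358%), and among the 33 only Ttf1, Zfp622 and Sp3os passed it. A missing call in that test does not show that the knockouts acted alike.

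**Figure D2:**
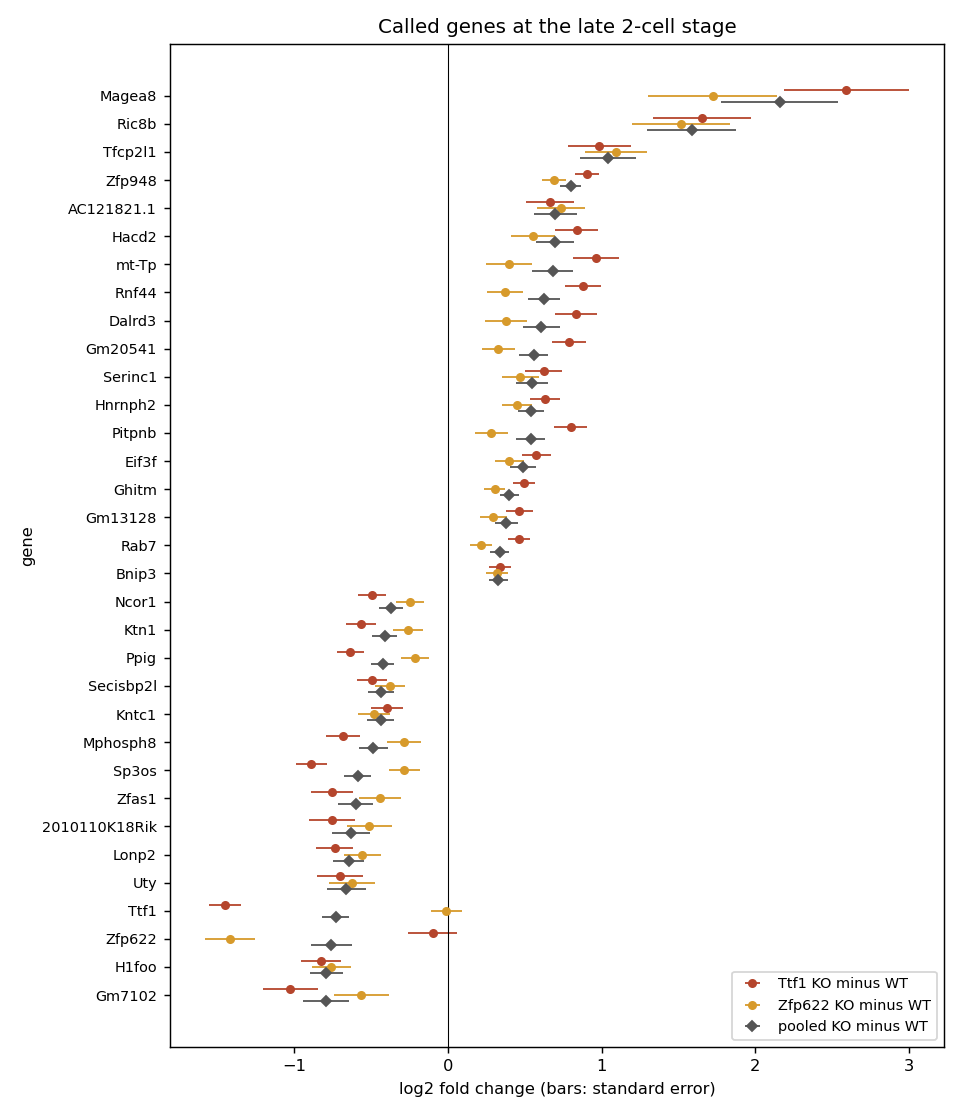
Log2 fold change against WT (horizontal axis, bars 1 standard error) of the 33 called genes (vertical axis) in Ttf1 KO, Zfp622 KO and both pooled with equal weight. Both single knockouts share the 4 WT libraries. The Ttf1 KO point lies farther from 0 than the Zfp622 KO point in 29 genes, the exceptions being Zfp622, Tfcp2l1, Kntc1 and AC121821.1.

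Zfp948 was the most clearly separated gene. It stood at 168, 156, 162 and 174 CPM in Ttf1 KO and at 139.8, 132, 149.9 and 148 CPM in Zfp622 KO, against 84.2, 86.6, 88.2 and 93.8 CPM in WT. All 8 knockout libraries lay above all 4 WT libraries, with a gap wider than the spread within any group. The pooled log2 fold change was 0.80 with a standard error of 0.07 (adjusted p = 8.18e-06, edgeR), and it was 0.90 in Ttf1 KO and 0.69 in Zfp622 KO. Zfp948 was 1 of 3 genes called in Zfp622 KO on its own.

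H1foo, which packages chromatin in the oocyte and early embryo in place of somatic linker histones, was at 33.6, 36.0, 38.9 and 37.5 CPM in Ttf1 KO and at 38.1, 37.8, 32.7 and 44.2 CPM in Zfp622 KO, against 49.5, 66.0, 73.9 and 69.8 CPM in WT. The groups did not overlap, and WT library 1 was the lowest of its group. The pooled log2 fold change was -0.79 with a standard error of 0.11 (adjusted p = 0.00251, edgeR). The fall was -0.83 in Ttf1 KO and -0.76 in Zfp622 KO.

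The promoters of these leading genes are shown because they are the clearest rise and the clearest fall common to both genotypes. Each run holds the 250 bases before the transcription start in RefSeq (GRCm38.p6), read 5′ to 3′ on the strand of the gene. Zfp948 lies at chr17:21566728-21566977 on the plus strand and H1foo (H1f8 in RefSeq) at chr6:115944681-115944930 on the plus strand. Capitals mark CCAAT read on the opposite strand.
Zfp948: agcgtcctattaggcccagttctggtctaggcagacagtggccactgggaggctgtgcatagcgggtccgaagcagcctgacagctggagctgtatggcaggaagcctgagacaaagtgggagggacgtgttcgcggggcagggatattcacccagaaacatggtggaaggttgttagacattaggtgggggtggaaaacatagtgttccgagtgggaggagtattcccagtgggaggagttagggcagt
H1foo: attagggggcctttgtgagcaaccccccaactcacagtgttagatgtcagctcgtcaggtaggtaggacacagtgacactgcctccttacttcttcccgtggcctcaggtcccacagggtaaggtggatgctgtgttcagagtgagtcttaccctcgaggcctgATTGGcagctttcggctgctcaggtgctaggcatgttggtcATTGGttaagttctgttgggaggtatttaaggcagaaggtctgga
Both strands were searched for the CCAAT box, for the GC box GGGCGG and for the TATA motif TATAAA, which do not share letters of one site. The H1foo window held 2 CCAAT matches and the Zfp948 window none of the 3 motifs. RefSeq promoters were found for 26 of the 33 called genes, 33 windows in all. CCAAT was in 44.4% of 18 windows of genes called higher and 33.3% of 15 windows of genes called lower, beside 33.8% of 32851 promoters. GGGCGG was in 66.7% and 60% of them, beside 32.7% of all promoters. TATAAA was in 16.7% and 6.67%, beside 12.4%. The 32851 promoters were not limited to genes tested, and called genes with several windows, such as Ghitm, entered these shares more than once. The called genes were abundant, with a median WT level of 63.2 CPM for those higher and 90.6 CPM for those lower, against 9.65 CPM over all genes tested, and whether the GGGCGG shares go with abundance was not tested.

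Among the other rises, Ric8b, a chaperone and exchange factor of G protein alpha subunits, had the largest fold change of the named genes. Its levels were low, at 3.05, 7.64, 5.08 and 6.72 CPM in Ttf1 KO and 6.57, 3.02, 6.30 and 4.59 CPM in Zfp622 KO, against 1.40, 2.41, 1.74 and 1.62 CPM in WT. No knockout library fell into the WT range, although the lowest ones, at 3.05 and 3.02 CPM, came close to it. The pooled log2 fold change was 1.58 with a standard error of 0.29 (adjusted p = 0.0274, edgeR), from counts between 16 and 91 per library.

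Tfcp2l1, a transcription factor of the naive pluripotency network, was at 8.67, 12.3, 8.36 and 12.1 CPM in Ttf1 KO and at 11.8, 10.5, 9.54 and 13.0 CPM in Zfp622 KO, against 4.73, 4.92, 4.39 and 6.83 CPM in WT. The ranges did not overlap, and the Zfp622 KO libraries were as high as those of Ttf1 KO. The pooled log2 fold change was 1.04 with a standard error of 0.18 (adjusted p = 0.0204, edgeR), with 0.99 in Ttf1 KO and 1.10 in Zfp622 KO. It was the 1 member called among 27 tested genes of pluripotency and the inner cell mass, a list whose median log2 fold change was -0.00175. Without Zfp622 KO library 2, Dppa3 (-0.33) was called on that list too.

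The other named rises included 3 genes with mitochondrial products, Bnip3, Ghitm and mt-Tp, although 0 of 77 tested genes of nuclear oxidative phosphorylation were called. Bnip3, a mitochondrial outer membrane protein of mitophagy, was at 554, 518, 494 and 489.5 CPM in Ttf1 KO and at 556, 471, 501 and 497 CPM in Zfp622 KO, against 419, 428, 400.2 and 378 CPM in WT. The knockout libraries all lay above WT by a similar margin in both genotypes, with log2 fold changes of 0.34 in Ttf1 KO and 0.32 in Zfp622 KO (pooled 0.33, adjusted p = 0.0367, edgeR). Ghitm, a protein of the inner mitochondrial membrane, ran from 302 to 395 CPM in the knockouts, against 247 to 268 CPM in WT (pooled log2 fold change 0.40, adjusted p = 0.00946). The mitochondrial proline transfer RNA mt-Tp ran from 16.1 to 31.0 CPM in the knockouts, against 11.1 to 14.2 CPM in WT (pooled 0.68), with more of the rise in Ttf1 KO (0.96) than in Zfp622 KO (0.40). Counting ignored strand, so reads of transcripts opposite mt-Tp cannot be told apart from its own. The 15 tested genes of the mitochondrial genome on the fixed list had a median log2 fold change of 0.08 and no member called, with 4 members under 0.05 before adjustment, 2 in each direction (13.3% each, beside 6.03% higher and 6.54% lower over all genes).

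Hacd2, which acts in the elongation of very long chain fatty acids, was at 28.5, 33.9, 29.9 and 36.5 CPM in Ttf1 KO and 25.3, 23.0, 27.1 and 30.5 CPM in Zfp622 KO, against 21.7, 17.7, 15.4 and 17.4 CPM in WT. The lowest knockout library, Zfp622 KO 2, was just above the highest WT library (pooled log2 fold change 0.69, adjusted p = 0.0239, edgeR). Rab7, a GTPase of late endosomes, ran from 325 to 430.1 CPM in the knockouts, against 278 to 308 CPM in WT (pooled 0.34, adjusted p = 0.0299). Eif3f, a subunit of translation initiation factor 3, ran from 64.6 to 84.0 CPM in the knockouts, against 50.6 to 59.7 CPM in WT (pooled 0.49, adjusted p = 0.0191). Rab7 overlaps Gm5577 on the other strand, which was not called (-0.40). Eif3f was the 1 member called among 53 initiation and elongation factors.

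The other named genes that fell in the pooled comparison, with the groups apart, were Lonp2, Kntc1, Mphosph8, Ncor1, Secisbp2l and Zfas1. Lonp2, the Lon protease of peroxisomes, was at 126, 123, 122 and 114 CPM in Ttf1 KO and at 110.5, 161, 115 and 163 CPM in Zfp622 KO, against 189, 177, 226 and 217 CPM in WT. All knockout libraries lay below WT, with Zfp622 KO libraries 2 and 4 nearest to it. The pooled log2 fold change was -0.65 with a standard error of 0.10 (adjusted p = 0.0097, edgeR).

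Kntc1, a kinetochore protein of the spindle checkpoint, was at 34.3, 34.4, 34.6 and 35.5 CPM in Ttf1 KO and at 30.9, 35.3, 34.5 and 29.9 CPM in Zfp622 KO, against 44.8, 43.8, 47.8 and 46.3 CPM in WT. The groups did not overlap (pooled log2 fold change -0.44, adjusted p = 0.0427, edgeR), with counts between 360 and 570 per library. Its call was lost in 16 of 23 alternative runs, and Ttf1 KO alone did not pass (adjusted p = 0.0584, edgeR). Mphosph8, a reader of methylated histone H3 in the HUSH silencing complex, ran from 43.1 to 71.9 CPM in the knockouts, against 74.1 to 91.0 CPM in WT (pooled -0.49, adjusted p = 0.0367). Ncor1, a corepressor of nuclear receptors, ran from 68.9 to 93.7 CPM in the knockouts, against 97.5 to 106.9 CPM in WT (pooled -0.37), at the edge of the threshold (adjusted p = 0.04995). Secisbp2l, which resembles the factor that binds selenocysteine insertion elements, ran from 64.6 to 88.7 CPM in the knockouts, against 89.8 to 112 CPM in WT (pooled -0.44, adjusted p = 0.0367).

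Zfas1, a noncoding RNA that hosts small nucleolar RNAs, was at 39.5, 30.1, 27.1 and 29.8 CPM in Ttf1 KO and at 36.0, 43.5, 33.95 and 43.2 CPM in Zfp622 KO, against 58.3, 46.3, 60.8 and 48.0 CPM in WT. All knockout libraries were below WT, with Zfp622 KO libraries 2 and 4 the closest to it (pooled log2 fold change -0.60, adjusted p = 0.0367, edgeR). It overlaps Znfx1 on the other strand, which had a pooled log2 fold change of -0.14 and was not called. Of 21 tested host genes of small nucleolar RNAs, 0 rose and 1 fell by the call. At an unadjusted p under 0.05, 5 were lower and 1 higher (23.8% lower, beside 6.54% of all genes tested), and the median was -0.13 pooled, -0.24 in Ttf1 KO and -0.08 in Zfp622 KO.

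Not every called gene was shared evenly. Sp3os, transcribed opposite to Sp3, was at 103.1, 102.1, 104.97 and 102.0 CPM in Ttf1 KO and at 133, 173, 169 and 152 CPM in Zfp622 KO, against 228, 194, 159 and 183 CPM in WT. Ttf1 KO lay below every other library, whereas Zfp622 KO overlapped WT, and the difference between the knockouts was itself called (log2 difference -0.60, adjusted p = 0.0355, edgeR). Sp3 had a pooled log2 fold change of -0.16 and was not called, and without strand its reads cannot be told apart from those of Sp3os where they overlap.

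Pitpnb, a phosphatidylinositol transfer protein, had 232, 257, 208 and 218 CPM in Ttf1 KO and 182, 129.5, 172 and 155 CPM in Zfp622 KO, against 133, 133, 148 and 112 CPM in WT. Zfp622 KO library 2 lay inside the WT range and every other knockout library above it (pooled log2 fold change 0.54, adjusted p = 0.0204). Ppig, a nuclear peptidyl-prolyl isomerase, ran from 314 to 403 CPM in Ttf1 KO and from 454 to 562 CPM in Zfp622 KO, against 528 to 626 CPM in WT (pooled -0.43, adjusted p = 0.0226). Its only overlapping knockout library was Zfp622 KO 2. The knockouts did not pass the test against each other for either gene.

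The remaining 10 called genes fall outside the naming rule and are listed after their values were seen. Higher were Rnf44 (0.62), the pseudogene Gm20541 (0.56), Serinc1 (0.55), Dalrd3 (0.61), Gm13128 (0.38), AC121821.1 (0.70) and the X-linked Magea8 (2.16). Lower were Ktn1 (-0.41), 2010110K18Rik (-0.63) and Gm7102 (-0.80), all as pooled log2 fold changes. Magea8 had the largest fold change of the 33 but stayed between 1.35 and 5.88 CPM in the knockouts, against 0.386 to 1.14 CPM in WT.

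Transcripts of the sex chromosomes also differed between the pools. Summed over Ddx3y, Eif2s3y, Kdm5d and Uty, all on the Y chromosome, levels were 55.6, 43.8, 62.2 and 49.2 CPM in Ttf1 KO and 55.7, 62.1, 63.5 and 70.7 CPM in Zfp622 KO, against 75.8, 90.8, 95.3 and 77.8 CPM in WT. No knockout pool reached the lowest WT pool. Xist, the X-linked RNA that silences an X chromosome, was at 13.0, 24.2, 12.4 and 7.33 CPM in Ttf1 KO and at 9.38, 9.40, 8.73 and 4.43 CPM in Zfp622 KO, against 3.33, 4.73, 5.85 and 1.79 CPM in WT. Only Zfp622 KO library 4 was within the WT range, and Xist did not pass the test (pooled log2 fold change 1.45, adjusted p = 0.108, edgeR).

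Uty, a Y-linked relative of an X-linked histone demethylase, was the Y gene called: 22.5, 15.8, 25.7 and 17.2 CPM in Ttf1 KO and 20.5, 20.6, 25.4 and 19.2 CPM in Zfp622 KO, against 32.9, 32.5, 33.6 and 32.99 CPM in WT. WT varied by about 1 CPM and lay above all knockout libraries (pooled log2 fold change -0.66, adjusted p = 0.0367, edgeR). Its counts ran from 188 to 406 per library. Hnrnph2, an X-linked RNA-binding protein, was at 149, 156, 149 and 142 CPM in Ttf1 KO and 139.7, 128, 147 and 112 CPM in Zfp622 KO, against 94.7, 96.9, 108.1 and 85.5 CPM in WT (pooled 0.54, adjusted p = 0.00946). Its groups did not overlap, with Zfp622 KO library 4 the closest to WT.

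Over 616 tested genes of the X chromosome the median pooled log2 fold change was 0.09 (0.13 in Ttf1 KO, 0.08 in Zfp622 KO), with 15.4% higher at an unadjusted p under 0.05. Over 16075 autosomal genes the median was -0.0036, with 5.67% higher by the same criterion. The 12 tested Y genes had a median of -0.35. The labels do not give the sex of the embryos in a pool of 10, and in bulk libraries fewer cells of a kind and less RNA per cell cannot be told apart; the part of pool sex in Uty, Hnrnph2, Magea8 and Xist was not tested. Without genes of chromosomes X and Y, 29 genes were called. In the morula pools the summed Y genes overlapped, at 92.1 ± 41.3 CPM in Ttf1 KO and 117 ± 36.1 CPM in Zfp622 KO, against 123 ± 53.5 CPM in WT (SD, n = 4 each).

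**Figure D3:**
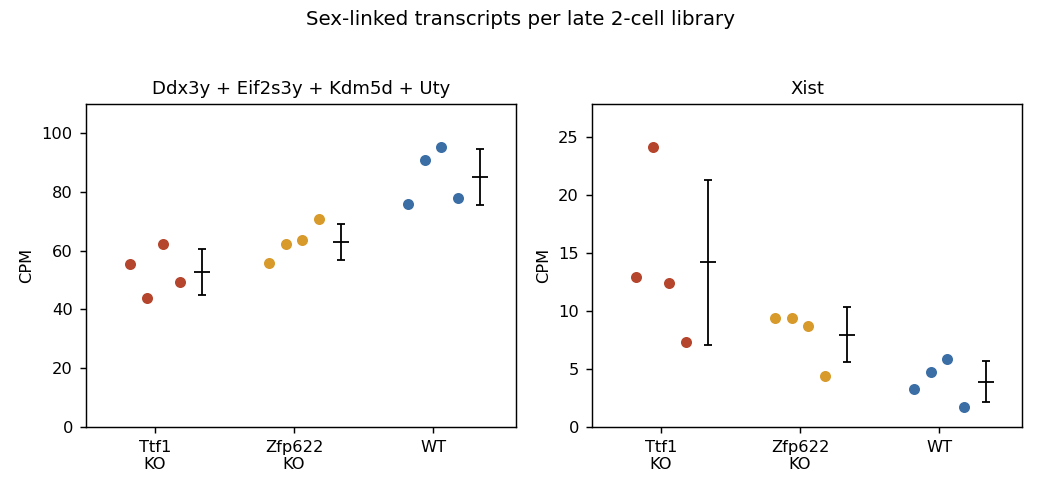
Summed level of 4 Y chromosome genes (left) and level of Xist (right) in CPM (vertical axes from 0) per late 2-cell library. Points are the 4 libraries of each group and bars the mean with its SD. The Y sum is lower in all 8 knockout pools than in the 4 WT pools, and Xist is above WT in 7 of the 8.

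Transcripts of the 2-cell stage leaned downward in the knockouts without passing the test gene by gene. Of 66 tested members of this list, 0 were called. Before adjustment 18 had a p under 0.05 and were lower and 1 was higher (27.3% lower, beside 6.54% of all genes tested). The median log2 fold change was -0.22 pooled, -0.28 in Ttf1 KO and -0.16 in Zfp622 KO, beside -0.00057 over all genes. Summed over 68 listed genes, levels ran from 10150 to 13560 CPM in the knockouts, against 11480 to 14010 CPM in WT (exact permutation test, two-sided, p = 0.0808, adjusted over 9 values 0.182; the smallest p possible is 0.00404). Many of these genes sit in clusters of near-identical copies, for which reads that map to several places were not counted, so single members are uncertain.

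Among them, Obox2, a homeobox gene of the oocyte and early embryo, was at 35.2, 31.6, 26.9 and 33.3 CPM in Ttf1 KO and at 40.0, 39.6, 36.2 and 39.3 CPM in Zfp622 KO, against 39.1, 50.3, 46.9 and 49.5 CPM in WT. Zfp622 KO overlapped WT library 1 (pooled log2 fold change -0.40, adjusted p = 0.0943, edgeR). Zscan4d, of the Zscan4 telomere and 2-cell cluster, ran from 46.3 to 117 CPM in the knockouts, against 67.4 to 125 CPM in WT (pooled -0.37, adjusted p = 0.574). Zfp352, another marker of the stage, ran from 152 to 353 CPM in the knockouts, against 255 to 353 CPM in WT (pooled -0.49, adjusted p = 0.355). The highest knockout level of Zfp352 was that of Zfp622 KO library 2.

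The number of pooled calls depended on single libraries, most on Zfp622 KO library 2. There were 6 calls without WT library 3 or 4, 8 without WT library 2, 15 without Ttf1 KO library 2, Ttf1 KO library 4 or Zfp622 KO library 1, and 20 without Zfp622 KO library 3. Without Zfp622 KO library 2, 298 of 17097 genes were called in the pooled comparison (1.74%), 116 higher and 182 lower. Of these, 177 had the 7 remaining knockout libraries on one side of WT. The share of all 17097 genes with that separation was not computed, and it is easier to reach with 1 library fewer. The 177 therefore cannot be read as a result about the calls. All 33 calls were among the 298. In the same fit, Zfp622 KO against WT called 7 genes (0.0409%), so most of the 298 were not called in that genotype by itself. The library left out was picked after it was seen beside WT library 4 on the first principal component, so a rise in calls may be built into the choice and the list counts that follow only describe the other 11 libraries. The 2-cell list then had 8 members called lower and 0 higher: Tdpoz3 (-1.08), Usp17ld (-0.83), Rfpl4b (-0.81), Tmem92 (-0.68), Ddit4l (-0.60), Tdpoz5 (-0.52), Tdpoz4 (-0.42) and Obox2 (-0.41), named after their values were seen. Its median was then -0.27 pooled, -0.29 in Ttf1 KO and -0.27 in Zfp622 KO. Knockout and WT libraries still overlapped for Tdpoz3, Tmem92, Tdpoz4 and Obox2, and Tdpoz3 was uneven, at -0.54 in Ttf1 KO and -1.63 in Zfp622 KO. Host genes of small nucleolar RNAs then had 5 members called lower, among them Snhg5 (-0.44) and Snhg12 (-0.50). The proteasome list had 3 called higher, Psmb5 (0.40), Psma5 (0.40) and Psmb6 (0.37), all subunits of the core particle.

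With library 2 included, the 46 tested proteasome genes had 0 called, 4 higher and none lower at a p under 0.05 before adjustment (8.7% higher, near the 6.03% of all genes), and medians of 0.07 pooled, 0.06 in Ttf1 KO and 0.07 in Zfp622 KO. Among 72 tested oocyte and maternal transcripts, H1foo was the 1 call. Before adjustment 8 members under 0.05 were lower and 4 higher (11.1% and 5.56%, beside 6.54% and 6.03% of all genes), and the median was -0.10. Bcl2l10, an anti-apoptotic oocyte gene, and Dppa3, which protects maternal DNA methylation, lay just outside the threshold (both adjusted p = 0.05255, edgeR). Bcl2l10 had a pooled log2 fold change of -0.51, and Dppa3 had -0.33. Without library 2 both were called lower.

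**Figure D4:**
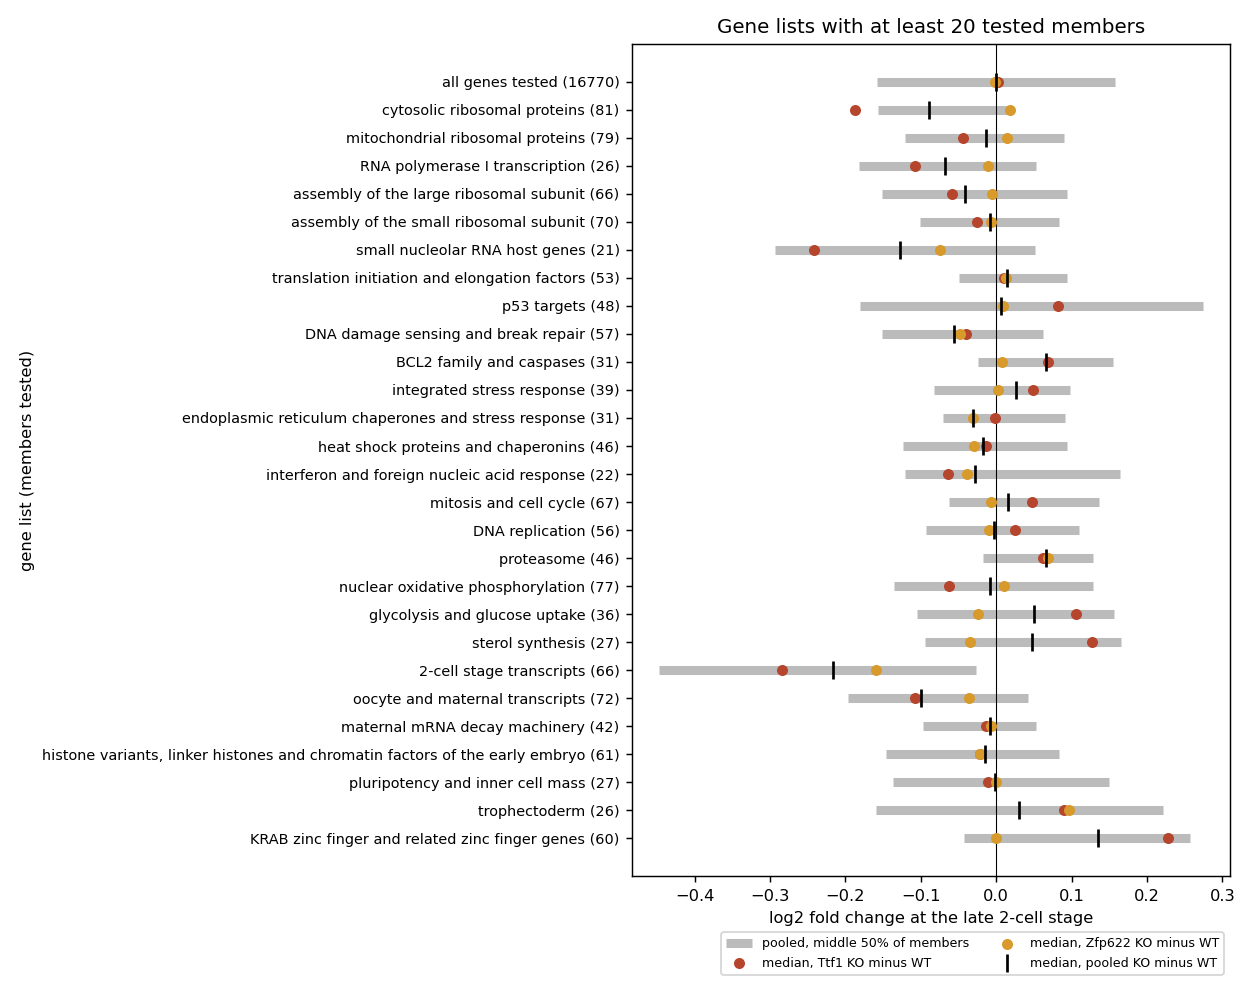
Median log2 fold change against WT at the late 2-cell stage (horizontal axis) for gene lists with at least 20 tested members and for all genes (vertical axis, number tested in brackets). Red and yellow points are medians in Ttf1 KO and Zfp622 KO, black ticks pooled medians and grey bars the middle 50% of members in the pooled comparison. The 2-cell list has the lowest pooled median at -0.22. The ribosomal protein list and the list of KRAB and related zinc finger genes are displaced in Ttf1 KO more than in Zfp622 KO.

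Genes of ribosome production, the process to which both targets belong, had no call besides both targets in the comparison of all 12 libraries. The 81 tested cytosolic ribosomal proteins had 0 called. With p under 0.05 before adjustment there were 22 lower and 3 higher (27.2% and 3.7%, beside 6.54% and 6.03% of all genes), and the median was -0.19 in Ttf1 KO but 0.02 in Zfp622 KO (pooled -0.09). RNA polymerase I transcription had 26 tested members, of which Ttf1 itself was the 1 call and 26.9% were lower before adjustment. Assembly of the large subunit had 66, of which Zfp622 itself was the 1 call, with 21.2% lower and 9.09% higher before adjustment. Assembly of the small subunit had 70 with 0 called, 15.7% lower and 10.0% higher before adjustment. Their pooled medians were -0.07, -0.04 and -0.0078.

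Without Zfp622 KO library 2 these lists had more calls, all named after their values were seen, beside 1.74% of all genes. The ribosomal proteins Rpl35 (-0.40), Rps21 (-0.33) and Rps24 (-0.30) were lower. On the RNA polymerase I list Taf1d (-0.39), a subunit of its selectivity factor, joined Ttf1. On the large subunit list, with 7.58% called, Ccdc59 (-0.34), Brix1 (-0.28) and Mak16 (-0.27) joined Zfp622 as lower and Zcchc9 (0.56) was higher. On the small subunit list Utp11 (-0.36) and Nop56 (-0.28) were lower and Tbl3 (0.35) higher. Each of these differences had the same sign in both genotypes, but so did all 298 calls of that fit, so the sign does not show an evenly shared change. Rpl35 was at -0.67 in Ttf1 KO and -0.13 in Zfp622 KO, Rps21 at -0.61 and -0.05, and Rps24 at -0.47 and -0.13. The list medians without that library were -0.19 in Ttf1 KO and 0.06 in Zfp622 KO for ribosomal proteins. For assembly of the large subunit they were -0.06 and 0.0066.

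KRAB zinc finger genes, many of which silence transposable elements, were listed together with related zinc finger genes. Of 60 tested members of this list, Zfp948 was the 1 called higher and 0 were called lower. At an unadjusted p under 0.05, 11 were higher and 2 lower (18.3% higher, beside 6.03% of all genes). The median was 0.13 pooled, 0.23 in Ttf1 KO and 3.4e-05 in Zfp622 KO. Without Zfp622 KO library 2, Zfp977 (0.40) was called higher too.

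Of 48 tested p53 targets 0 were called at this stage, with or without Zfp622 KO library 2. Before adjustment 8 passed 0.05 as higher and 7 as lower (16.7% and 14.6%, beside 6.03% and 6.54% of all genes), and the median was 0.0067. Cdkn1a, the cell cycle inhibitor p21, ran from 52.3 to 116 CPM in the knockouts, against 57.5 to 84.2 CPM in WT (pooled log2 fold change 0.12, adjusted p = 0.848, edgeR). Mdm2, the ubiquitin ligase of p53, was at 132 to 156 CPM in the knockouts, against 138 to 159 CPM in WT (-0.0087, adjusted p = 0.976), a value of either sign depending on the scaling.

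Ccng1, cyclin G1, was at 32.5, 22.3, 34.4 and 27.4 CPM in Ttf1 KO and at 34.9, 47.2, 27.2 and 37.5 CPM in Zfp622 KO, against 22.8, 24.2, 17.9 and 23.97 CPM in WT. Ttf1 KO library 2 overlapped WT, and the gene was not called (pooled 0.56, adjusted p = 0.117, edgeR). Trp53inp1, which promotes p53-dependent stress responses, ran from 243 to 321 CPM in the knockouts, against 228 to 281 CPM in WT (0.10, adjusted p = 0.61). In the separate morula embryos the same 4 genes were higher in the pooled knockouts by 2.58, 1.59, 1.77 and 1.93 on the log2 scale for Cdkn1a, Mdm2, Ccng1 and Trp53inp1, all called. The difference between stages was called for all 4.

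The morula libraries allowed the late 2-cell calls to be read in embryos that did not enter them. At morula the pooled comparison called 6064 of 14865 genes (40.8%), 21.7% higher and 19.1% lower. Of the 31 late 2-cell calls besides the targets, all were tested there and 14 were called in either direction, near the share over all genes. Of the 14, 10 moved in the same direction and 4 in the opposite one, a split that was not tested. Lane cannot be told apart from genotype for Ttf1 KO at morula either. Zfp948 was higher again at 11.4 to 21.2 CPM in the knockouts, against 9.40 to 11.3 CPM in WT (pooled log2 fold change 0.59, adjusted p = 0.000597, edgeR). Bnip3 (0.51), mt-Tp (0.91), Ric8b (0.77) and Pitpnb (0.31) were also higher, and Kntc1 (-0.51), Ncor1 (-0.47) and Mphosph8 (-0.32) lower.

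Others turned over between the stages. Tfcp2l1 was lower in knockout morulae, at 302 to 395 CPM, against 471 to 553 CPM in WT (pooled log2 fold change -0.62, adjusted p = 1.56e-05, edgeR). Lonp2 was higher, at 62.4 to 101 CPM in knockout morulae, against 42.4 to 50.8 CPM in WT (0.66, adjusted p = 0.000172). Sp3os was higher in knockout morulae by 1.09. The effect at late 2-cell minus that at morula was called for 16 of the 31 genes, beside 21.2% of 18864 genes tested over all 24 libraries. Those 31 were chosen on the late 2-cell effect, which enters this difference, so their share cannot be read against that of all genes. H1foo was at most 1.14 CPM in every morula library, so that its difference there (0.69, adjusted p = 0.176) rests on few counts.

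**Figure D5:**
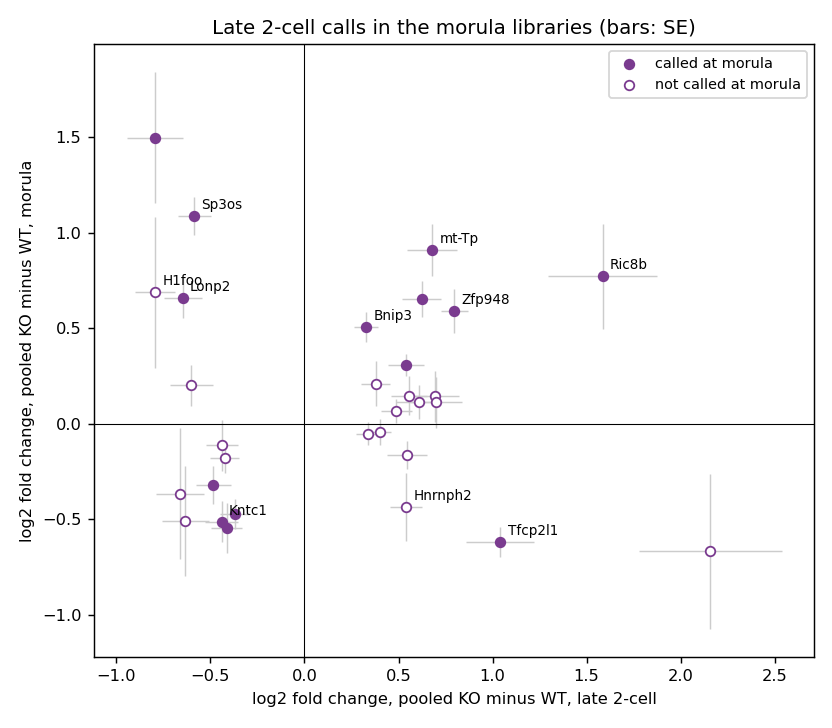
Pooled knockout log2 fold change at the late 2-cell stage (horizontal axis) and at morula (vertical axis) for the 31 called genes that are not targets, with bars of 1 standard error. Filled points passed the test at morula and open points did not. Genes in the upper right and lower left moved the same way at both stages, and Tfcp2l1, Lonp2 and Sp3os lie in the other corners.

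On chromosome 2, which carries Ttf1, 4 of the 15 genes called lower lay distal to Ttf1, a region with 6.05% of the genes tested: Sp3os, Ppig, Secisbp2l and Zfas1. The 1015 tested genes of that region had a median log2 fold change of -0.11 in Ttf1 KO and 0.00078 in Zfp622 KO. The part of the region in these 4 calls was not tested, and their Zfp622 KO values were -0.28, -0.21, -0.38 and -0.45.

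Summed markers of other cells overlapped between knockout and WT libraries. Summed markers of cumulus and granulosa cells (37 genes, 2 at 0 in all 12 libraries) ran from 167 to 293 CPM in the knockouts, against 166 to 231 CPM in WT. Most of that sum came from Gja1, a gap junction protein, at 64.7 to 184 CPM in the knockouts and 67.3 to 123 CPM in WT, and from Amhr2 at 48.0 to 80.6 CPM in the knockouts and 54.6 to 69.8 CPM in WT, neither of them called. Fshr, the receptor for follicle-stimulating hormone, was at most 0.345 CPM in any library. Sperm markers (23 genes, 2 at 0) ran from 80.5 to 92.8 CPM, against 85.0 to 95.9 CPM in WT (exact permutation p = 0.0404, adjusted 0.158). Blood cell markers (22 genes, 5 at 0) ran from 18.8 to 35.5 CPM, against 20.4 to 31.0 CPM in WT. Mitochondrial genes took 5.41% to 6.84% of counts in the knockouts, against 5.5% to 6.03% in WT (exact permutation p = 0.19, adjusted 0.26). None of the 9 summed values passed after adjustment.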

How the data were processed

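Files hold deposited counts of read pairs per gene, one per library; no columns were left unused. The authors aligned paired reads of 150 bases with HISAT2 2.2.1 and counted with featureCounts 2.0.1, per the submitters' processing notes. Counting took exons of the Ensembl release on GRCm38 with no strand option and no reads that map to several places, per the file headers. Copies and overlapping genes can therefore lose or share reads.

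Genes were kept by filterByExpr, scaled by TMM and fitted with robust quasi-likelihood models in edgeR 4.0.16 (R 4.3.3), with Benjamini-Hochberg adjustment. The 12 late 2-cell libraries formed 3 groups; the contrast was the mean of both knockouts minus WT. Single values had exact permutation tests. Replicate numbers did not pair libraries (see the closing section). P-values measure the spread between pools of embryos. Steps were tested on simulated data.

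Named genes were both targets, the 10 largest non-overlapping rises and falls at 5 CPM or more, up to 4 called members per list, 10 set genes and genes with the largest or smallest difference between knockouts. Members, lists and tests were chosen with earlier results of these data known. DESeq2 1.42.0, other scalings, filters, fits and omitted libraries were alternatives. Genotype labels of the Zfp622 libraries name other genes by counting upward; titles were used.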

Additional observations from a re-analysis of the deposited data

Results flagged for a closer look

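In 5 of 123 groups of 4 libraries, 1 library lay far from the other 3; chance alone marks about 1 group in 20. Ghitm was at 302.2 CPM in Zfp622 KO library 2, against 327 CPM in each of the others of its group. Xist was at 4.43 CPM in Zfp622 KO library 4, against 8.73 to 9.40 CPM, and Mdm2 at 146 CPM in Ttf1 KO library 1, against 155 to 156 CPM. Summed oocyte and maternal transcripts were at 33740 CPM in Ttf1 KO library 1, against 27670 to 28540 CPM, and at 39770 CPM in WT library 4, against 32770 to 33920 CPM.

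The knockouts differed from each other at the late 2-cell stage for 3 named genes. The log2 difference of Ttf1 KO minus Zfp622 KO was -1.44 for Ttf1, 1.32 for Zfp622 and -0.60 for Sp3os (edgeR, adjusted p = 3.59e-07, 0.00595 and 0.0355).

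For 15 named genes the pooled effect differed between the stages, given as the effect at late 2-cell minus that at morula on the log2 scale. It was positive for Tfcp2l1 (1.67), Hnrnph2 (0.99), Hacd2 (0.56), Ghitm (0.45), Eif3f (0.43) and Rab7 (0.40). It was negative for Ttf1 (-0.42), H1foo (-1.48), Lonp2 (-1.29), Zfas1 (-0.79) and Sp3os (-1.66). The 4 p53 effectors had Cdkn1a at -2.45, Trp53inp1 at -1.82, Mdm2 at -1.59 and Ccng1 at -1.20. Adjusted p-values of these differences (edgeR) ran from 5.64e-09 for Sp3os to 0.0331 for Hacd2. For Ttf1 the pooled effect averages both knockouts.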

How the results depend on the processing

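The count of late 2-cell calls depended strongly on the processing. In place of 33 it was 338 with DESeq2, 469 with no filter on low counts, 53 higher and 51 lower (1.0e+02 in all) with all 24 libraries in the fit, 143 at an adjusted p of at most 0.1 (added after seeing the data), 8 with both knockouts as 1 group of 8 and 3 at a log2 change of 1 or more in size. Fits of 1 knockout with WT alone gave 482 for Ttf1 KO and 2 for Zfp622 KO. Leaving out 1 library gave 6 to 298: 6 without WT 3 or WT 4, 8 without WT 2, 15 without Ttf1 KO 2, Ttf1 KO 4 or Zfp622 KO 1, 20 without Zfp622 KO 3 and 298 without Zfp622 KO 2. Calls with the libraries of both knockouts on one side of WT were 23 as given. They were 96 with DESeq2, 75 with no filter, 42 with all 24 libraries and 8 with 1 group of 8. There were 3 at the fold threshold and 4 to 177 when 1 library was left out. Fits of 1 knockout with WT alone ask this only of the 4 libraries of that knockout. They gave 449 for Ttf1 KO and 2 for Zfp622 KO. Ttf1 KO against Zfp622 KO, 6 as given, gave 73 with DESeq2, 84 with no filter, 20 with all 24 libraries and 1 to 8 with 1 library out. The morula count of 6064 was 1598 at the fold threshold and 5096 to 6163 with 1 library out, and the stage difference count of 3998 ran from 3287 to 4183. The cause of these differences was not tested.

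All 23 called named genes kept their direction in every alternative run, and their calls were lost in 199 of 529 fits. Most of the 23 were named from genes with all knockout libraries on one side of WT. Their direction was therefore largely fixed in advance and is no check of the calls. Ncor1 lost its call in 18 of 23, Kntc1 in 16, Bnip3, Zfas1 and mt-Tp in 14 each, and Zfp948 in 1. Mdm2 changed sign, at 0.0116 with total counts only and 0.0309 in Ttf1 KO alone, and ran from -0.0453 to 0.0181 with 1 library out (0.00416, 0.0111, 0.0144 and 0.0181 in the 4 fits that changed sign). Differences of summed blood markers ran from -2.30 to 1.27 CPM and of trophectoderm genes from -1.82 to 15.7 CPM when 1 library was left out, without passing the test. Correlations of libraries with the same number ran from -0.198 to 0.104, so the numbers were not taken as pairs; a replicate block gave 24 pooled calls, 14 with libraries on one side and 3 between the knockouts. At these depths Ric8b rests on 16 to 91 counts per library and Magea8 on 4 to 70.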
